A study of Mus musculus with 66 samples.

Results

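The astrocyte marker genes described here are 10 genes that are commonly used to recognise astrocytes in brain tissue, namely Glul, Aldoc, Aldh1l1, Gja1, Gjb6, Aqp4, Mlc1, Gfap, S100b and Sox9. They were taken by gene symbol from a table of 24138 gene entries, in all 66 libraries of the series. Of the 10, 9 matched by symbol alone, and Glul was found only in an entry that joins it with the microRNA gene Mir8114, so its values cover both. Each of the 10 was measured above 0 in every library, and each passed the filter on low values in every comparison.

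Astrocytes are the glial cells that take up transmitter released at synapses, buffer potassium and water, and feed neurons with metabolites. They are joined into networks by gap junctions, and their endfeet cover the blood vessels. In the striatum they surround the synapses of medium spiny neurons, the cells that receive the dopamine signal that cocaine prolongs, and several glial genes are known to follow the day and night cycle in other brain regions.

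RNA came from tissue punches of the ventral striatum (nucleus accumbens, NAcc) of male mice, 3 to 5 months of age. Their background is C57BL/6 in the sample labels and C57BL/6J in the paper. Wild-type (WT) mice were set beside iMSN-D2RKO mice, in which both copies of the dopamine D2 receptor gene are floxed (D2R flox/flox) and a Cre driven by the dopamine D1 receptor promoter removes it in indirect-pathway medium spiny neurons (iMSNs), because their embryonic precursors express both receptors. Mice of each genotype received saline or cocaine (20 mg/kg, i.p.) at zeitgeber time 3 (ZT3, with lights on at ZT0) and were killed at ZT7, ZT11, ZT15, ZT19 or ZT23. The ZT3 mice of each genotype stood at the start of both treatments. This gave 22 groups of 3 libraries. The Cre line acts in neurons, so no astrocyte gene was a target of the deletion.

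The whole-gene value of Drd2, the deleted gene, did not separate the genotype labels. In saline-treated mice the libraries labelled iMSN-D2RKO differed from WT by -0.02 on the log2 scale (SE 0.17, 95% confidence interval -0.36 to 0.32, limma adjusted p = 0.978), and in cocaine-treated mice by -0.25 (SE 0.19, interval -0.63 to 0.13, adjusted p = 1). A whole-gene value also counts reads outside the deleted part and from cells without Cre, so it does not check the labels. Of 7 clock genes, 6 were rhythmic in WT saline, 4 in WT cocaine, 2 in iMSN-D2RKO saline and 1 in iMSN-D2RKO cocaine, by the test and threshold described below. Of all genes tested, 9.81%, 7.61%, 2.58% and 1.1% were rhythmic in these 4 series. At a corrected p under 0.05 the counts were 6, 6, 7 and 5, beside 23.7%, 19.5%, 11.3% and 4.16% of all genes. The 6 of WT saline were Per2 (exact JTK_CYCLE p = 1.43e-06), Per3, Arntl, Nr1d1, Dbp and Cry1. Without the set-apart libraries described below, Dbp in WT saline and Nr1d1 and Dbp in WT cocaine lost the rhythm call. The same held for Per2 and Per3 in iMSN-D2RKO saline.

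Values are FPKM, the number of sequenced fragments scaled by transcript length and by library size, so that levels of different genes can be compared per unit of length. Read counts per library are not known from the table, so no counting interval could be given. The FPKM of all genes summed to between 364078 and 690048 per library (median 396432.5), and between 12496 and 13028 genes reached an FPKM of 1. The highest sum belonged to iMSN-D2RKO ZT7 saline replicate 1 and the next highest was 465297. The lowest belonged to WT ZT15 cocaine replicate 3.

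The libraries were not of 1 kind. A principal component analysis of the differences between replicates of a group, made on 9471 genes without any gene of the lists used here, put 43.8% of that variance on 1 axis. On it 13 libraries scored 44 or higher and the other 53 scored 15 or lower, with none between. The 13, called the set-apart libraries below, were 7 iMSN-D2RKO and 6 WT libraries, 7 of saline and 6 of cocaine. They were spread unevenly over the day, with 6 of 12 libraries at ZT19, 4 of 12 at ZT23, 2 of 12 at ZT15, 1 of 12 at ZT7 and none at ZT3 or ZT11. In WT at ZT19, replicates 1 and 2 of saline and replicates 1 and 3 of cocaine were set apart, and in iMSN-D2RKO at ZT19 replicates 1 and 3 of saline and no cocaine library. Calls for the markers and for the other astrocyte genes are given with and without them. A difference on the scale of log2(FPKM + 1) understates the change of genes at low FPKM.

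The positions of 9 members are given here. In the GENCODE annotation of GRCm38 (the assembly that UCSC calls mm10), the protein-coding gene Glul spans chr1:153899944-153909723 on the plus strand, Aldh1l1 chr6:90486427-90600203 (plus), Gja1 chr10:56377330-56402513 (plus), S100b chr10:76253853-76261159 (plus), Aldoc chr11:78322968-78327781 (plus), Gfap chr11:102887336-102900912 (minus), Sox9 chr11:112782224-112787760 (plus), Gjb6 chr14:57123303-57133611 (minus) and Mlc1 chr15:88955884-88979007 (minus).

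Because the study asks which genes follow the daily cycle, the promoters were searched for binding motifs of the clock. The windows were the 250 bases before each RefSeq start (assembly GRCm38.p6), read on both strands, and 8 members matched with 9 starts. Sox9 and Aqp4 were not searched. The E-box CACGTG, bound by CLOCK and BMAL1, stood in none of the 9 windows and in 6.02% of 32851 promoters of the same length. The D-box TTATGTAA, bound by DBP and its relatives, stood in none of the 9 and in 0.819% of all. The AGGTCA core of the element bound by ROR and REV-ERB receptors stood in 3 windows, those of Glul, Aldh1l1 and Gfap, and in 14.0% of all. The STAT motif TTCNNNGAA stood in 1 window, at the second Aldoc start, and in 7.02% of all. The letters of no motif contain those of another. The 3 windows with the ROR core are printed 5′ to 3′ on the strand of the gene, with AGGTCA or its reverse complement TGACCT in capitals. They are chr1:153899679-153899928 (plus), chr6:90550543-90550792 (plus) and chr11:102897201-102897450 (minus).
Glul: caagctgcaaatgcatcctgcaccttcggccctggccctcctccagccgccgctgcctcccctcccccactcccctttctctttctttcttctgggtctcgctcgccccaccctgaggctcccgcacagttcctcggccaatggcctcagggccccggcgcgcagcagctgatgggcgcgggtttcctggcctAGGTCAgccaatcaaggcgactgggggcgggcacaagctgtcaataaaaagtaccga
Aldh1l1: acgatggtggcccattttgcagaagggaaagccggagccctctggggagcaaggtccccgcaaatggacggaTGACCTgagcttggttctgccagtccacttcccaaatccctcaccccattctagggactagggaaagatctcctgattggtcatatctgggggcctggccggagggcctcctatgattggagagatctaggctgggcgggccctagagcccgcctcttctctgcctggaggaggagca
Gfap: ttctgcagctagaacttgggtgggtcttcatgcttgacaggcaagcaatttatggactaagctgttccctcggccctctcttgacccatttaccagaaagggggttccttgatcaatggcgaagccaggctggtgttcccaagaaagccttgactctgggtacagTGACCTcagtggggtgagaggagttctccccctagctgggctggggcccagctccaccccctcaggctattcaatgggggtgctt

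A match is a run of letters and not a shown binding site. As described below, none of these 3 genes passed the rhythm test in any of the 4 series.

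The members fell into tiers of abundance that were stable across libraries. Glul and Aldoc were the most abundant, at 400 ± 89.8 and 244 ± 42.2 FPKM (mean ± SD, n = 66), followed by Mlc1, S100b and Gja1 between 63.2 and 71.8 FPKM, then Gfap at 31.3 ± 15.5, and Aldh1l1, Aqp4, Gjb6 and Sox9 between 8.93 and 17.1. Glul was above Aldoc in 65 of 66 libraries, Aldoc above Mlc1 in 66 and Gja1 above Gfap in 64. Neighbours inside a tier could not be ordered as firmly, since Mlc1 was above S100b in 46 of 66, S100b above Gja1 in 40 and Aldh1l1 above Aqp4 in 42. Gfap was above Aldh1l1 in 60, Aqp4 above Gjb6 in 48 and Gjb6 above Sox9 in 57.

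The metabolic members were led by Glul, the glutamine synthetase that turns glutamate taken up at synapses into glutamine. Its level ran from 211 to 690 FPKM (median 402), with group means from 282 in WT ZT19 cocaine (249, 345 and 253) to 494 in iMSN-D2RKO ZT15 cocaine (625, 557 and 300). The lowest and the highest value inside that last group lay more than 300 FPKM apart, so the group mean hides a split between its replicates. Aldoc, the brain form of the glycolytic enzyme aldolase, was the steadiest member, with a spread between replicates of 0.20 (SD, log2) where the median over 9584 genes with a mean FPKM of at least 5 was 0.28. Its group means ran from 204 in WT ZT15 cocaine (244, 237 and 131) to 336 in iMSN-D2RKO ZT7 saline (456, 306 and 244). Both ends rested on a single library, the low 131 and the high 456. Aldh1l1, a folate enzyme widely used to label astrocytes, ran from 10.3 to 38.5 FPKM. Its highest value, 38.5 in iMSN-D2RKO ZT7 saline replicate 1, stood apart from 21 and 19.2 in the other 2 replicates.

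The membrane members serve coupling and water balance. Gja1 and Gjb6 encode connexin 43 and connexin 30, the gap junction proteins that join astrocytes. Gja1 ran from 32.1 to 96.7 FPKM and Gjb6 from 6.86 to 22.8, and the spread between replicates was wider for Gjb6 (0.42, SD of log2) than for Gja1 (0.26). Aqp4, the water channel of the endfeet, ran from 6.3 to 35.8, with its highest group in WT ZT19 saline (32.3, 35.8 and 15.8) and its lowest in WT ZT15 cocaine (11.1, 16.1 and 8.48). The WT ZT19 saline group was split, with its 2 set-apart libraries high and the third at the level of the other groups. Mlc1, a membrane protein of the endfeet, ran from 40.5 to 98.7 and its 2 highest group means were those of ZT3, where all 6 libraries lay between 81.9 and 90.5. The single highest value, 98.7, was in WT ZT15 cocaine replicate 2.

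Gfap, the intermediate filament protein of the astrocyte skeleton, varied most of all members. It ran from 11 to 85.4 FPKM, a 7.8-fold range, and its spread between replicates (0.54, SD of log2) exceeded that of 93.9% of the 9584 genes. Group means ran 3.95-fold, from 14 in WT ZT11 saline (13.7, 11 and 17.3) to 55.4 in iMSN-D2RKO ZT7 saline (85.4, 62.4 and 18.3). The 3 libraries of the lowest group were alike, while the highest group held a replicate as low as 18.3. WT ZT19 cocaine was split in the same way, at 52.9, 84.9 and 16.1. S100b, a calcium-binding protein that oligodendrocytes also express, ran from 39.2 to 153 and was highest in iMSN-D2RKO ZT7 saline (153, 89.3 and 63.2). Sox9, the transcription factor that marks astrocyte nuclei in the adult brain, was the least abundant, at 8.93 ± 2.46 FPKM with a range of 5.4 to 15.1.

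**Figure D1:**
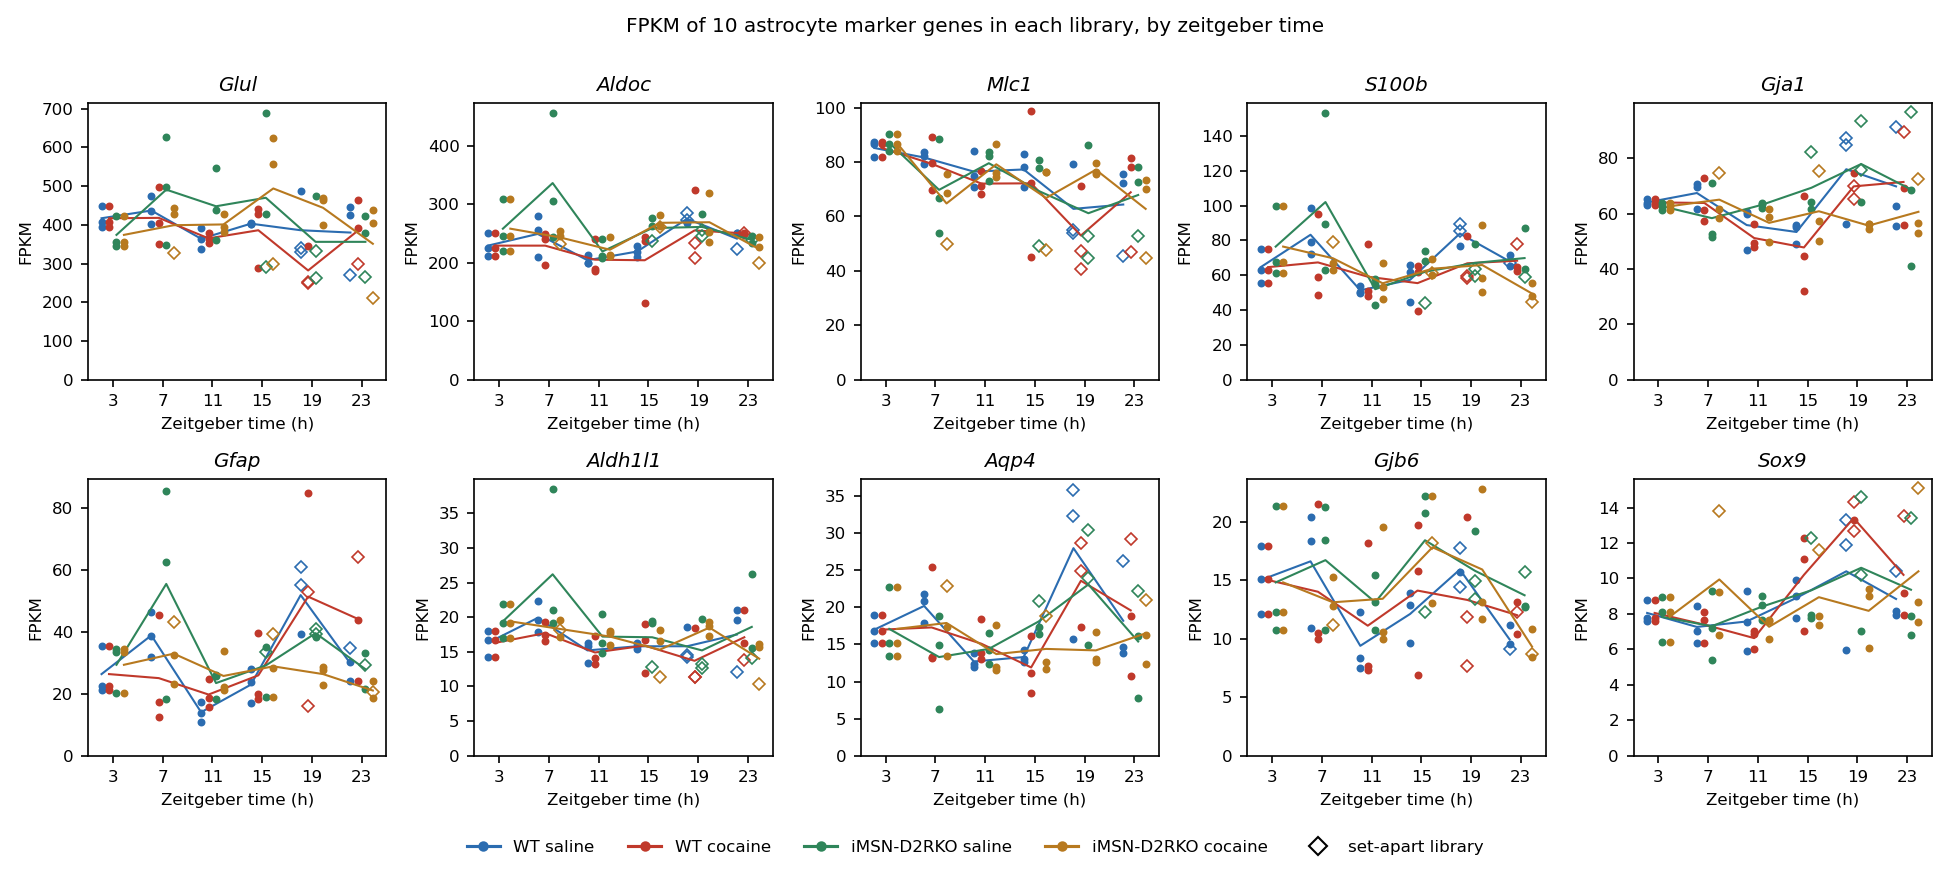
FPKM of the 10 astrocyte marker genes (y axis, starting at 0, a scale for each gene) against zeitgeber time in hours, for WT saline, WT cocaine, iMSN-D2RKO saline and iMSN-D2RKO cocaine. Points are single libraries, open diamonds are the set-apart libraries, lines join the means of 3 libraries, and the ZT3 libraries are drawn in both treatments of their genotype. The diamonds lie high for Aqp4, Sox9 and Gja1 and low for Glul, Mlc1 and Aldh1l1, and Gfap shows its highest values in single libraries at ZT7 and ZT19.

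The members did not move together in the set-apart libraries. In the 10 groups that hold libraries of both kinds, the difference of the set-apart libraries from the others of the same group was averaged over groups, on the scale of log2(FPKM + 1). Aqp4 was 0.72 higher in them (higher in 10 of 10 groups), Sox9 0.61 (10 of 10), Gja1 0.44 (9 of 10) and Gfap 0.22 (8 of 10). Glul was lower, at -0.68 (higher in 0 of 10 groups), as were Mlc1 at -0.65 (0 of 10) and Aldh1l1 at -0.49 (0 of 10). Gjb6 stood at -0.23 (4 of 10), Aldoc at -0.14 (1 of 10) and S100b at -0.14 (3 of 10). Astrocyte markers thus lay on both sides. Over all 9584 genes the median of this difference was 0.07, and the range from the 5th to the 95th percentile was -0.99 to 0.95.

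Of 47 genes in the 7 other astrocyte lists with a mean FPKM of at least 5, 5 were more than 0.5 higher in the set-apart libraries, 13 more than 0.5 lower and 29 in between (median -0.15). Of all 9584 genes, 23.2% were more than 0.5 higher and 18.5% more than 0.5 lower. The genes named next were chosen after their values were seen, for their size. Id4, a glial transcription regulator, was 1.15 higher in the set-apart libraries (10 of 10 groups), Atp1b2, a sodium pump subunit, 0.71 (9 of 10), and the glutamate transporter Slc1a3 0.60 (9 of 10). The transcription factors Id3 and Hes5 were lower, at -1.73 and -1.67, the matrix protein Bcan at -1.08 and the metallothionein Mt2 at -1.04, each in 10 of 10 groups. The summed neuron markers (most abundant gene Snap25) differed by -0.02, the spiny neuron markers (Penk) by -0.02, the endothelial markers (Slc2a1) by 0.04 and the oligodendrocyte markers (Mbp) by -0.34, and no gene of these 4 lists was at 0 in any library. Sequence composition moved with this difference. Across 8882 genes with a matched transcript (92.7% of the 9584), it correlated with the GC content of the longest coding transcript at r = -0.63 (Spearman's rho = -0.65) and with log2 of its length at r = 0.45 (rho = 0.43). These are correlations across genes, which are not independent replicates. Among the members, Aqp4 (41.4% GC) and Gja1 (45.1%) had the lowest GC content and Gfap (55.5%) and Aldh1l1 (54.4%) the highest, where the median of all genes was 50.5%. The part of GC content or transcript length in the values of the members was not tested.

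**Figure D2:**
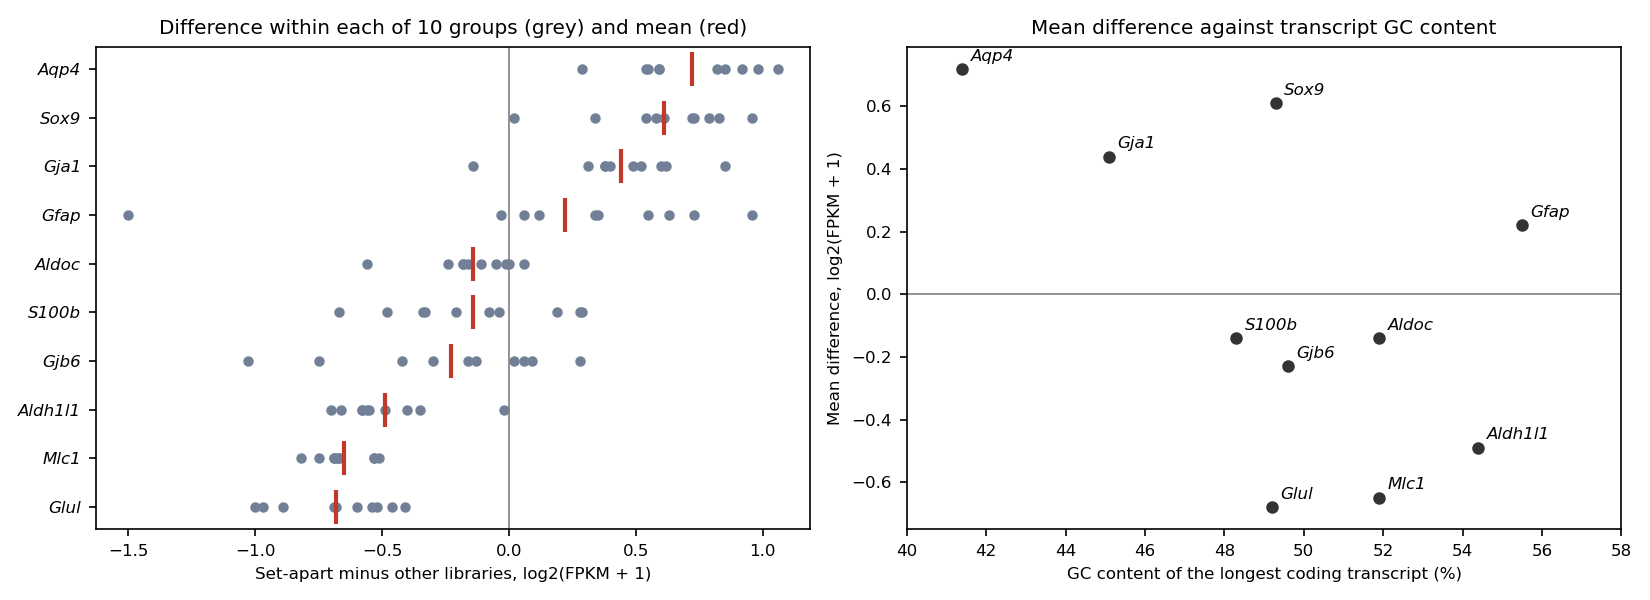
Left, difference of the set-apart libraries from the other libraries of the same group, on the scale of log2(FPKM + 1), for each astrocyte marker gene, with grey points for each of the 10 groups and a red bar for their mean. Right, the same mean (y axis) against the GC content of the gene's longest coding transcript in percent (x axis). The means run from 0.72 for Aqp4 to -0.68 for Glul, and Aqp4 has the lowest GC content and the highest mean, Gfap the highest GC content and a mean of 0.22, and Sox9 and Glul nearly the same GC content (49.3% and 49.2%) and means of 0.61 and -0.68.

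Another 3 libraries gave extreme values of single members. In iMSN-D2RKO ZT7 saline replicate 1, Gfap (85.4 FPKM), S100b (153), Aldoc (456) and Aldh1l1 (38.5) each had the highest value of all 66 libraries, while Aqp4 (6.3) had the lowest. In WT ZT15 cocaine replicate 3, Aldoc (131), S100b (39.2), Gja1 (32.1) and Gjb6 (6.86) each had the lowest value of all, while Sox9 (12.3) was above its 2 companions. WT ZT19 cocaine replicate 2 held the next highest Gfap value, 84.9. The first 2 of these had the highest and the lowest sum of FPKM and the widest scores on the second axis of the component analysis (14.1% of the variance), and values without these 2 are given where they matter.

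Rhythm over the day was asked separately in each genotype and treatment with JTK_CYCLE. This is a rank test against cosine-like waves of 20 to 24 h with an exact null distribution. The threshold was a corrected p under 0.01, and every exact p given for this test is the value after that correction. Of the 10 members, 0 were rhythmic in WT saline, where 9.81% of all genes tested were, 1 in WT cocaine (7.61% of all genes), 0 in iMSN-D2RKO saline (2.58%) and 0 in iMSN-D2RKO cocaine (1.1%). The rhythmic member was Sox9 in WT cocaine (exact p = 0.00371, best period 24 h, peak at ZT21). It also passed limma's F test of a 24 h cosine (adjusted p = 0.0241, amplitude 0.40 on the log2 scale, peak at ZT19.7), as did 14.6% of all genes. No other member did there. By that test 0 of 10 members passed in WT saline (14.1% of all genes), in iMSN-D2RKO saline (0.00707%) and in iMSN-D2RKO cocaine (0%).

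In WT cocaine, Sox9 stood at 7.61, 8.78 and 7.76 FPKM at ZT3, at 7.68, 8.12 and 6.38 at ZT7, and at 7.04, 6.02 and 6.84 at ZT11. It then stood at 7.05, 11.1 and 12.3 at ZT15, at 14.3, 13.3 and 12.7 at ZT19, and at 9.16, 7.94 and 13.5 at ZT23. All 3 libraries at ZT19 lay above every library of ZT3 to ZT15, and only ZT23 overlapped them, with 13.5. In WT saline at ZT19 the values were 13.3, 11.9 and 5.96, and the exact rhythm test gave p = 0.211 there. Part of the high values were those of set-apart libraries, namely 14.3 and 12.7 at ZT19 and 13.5 at ZT23 in WT cocaine and 13.3 and 11.9 in WT saline. In WT cocaine, 13.3 at ZT19 and 11.1 and 12.3 at ZT15 came from libraries that were not set apart. Without the set-apart libraries the call for Sox9 was lost (exact p = 0.124), and it was lost without all replicates numbered 1 (p = 0.0499), 2 (p = 0.0156) or 3 (p = 0.134). Leaving out 1 library at a time, it was kept in 14 of 18 cases and lost without WT ZT7 cocaine replicate 3 (exact p = 0.0108) and without WT ZT19 cocaine replicate 1 (p = 0.0154), 2 (p = 0.0108) or 3 (p = 0.0108). The test of a difference in rhythm between cocaine and saline in WT, which share the ZT3 libraries, was not passed by Sox9 (adjusted p = 1).

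Gfap had the widest fitted waves of the members in WT, with an amplitude of 0.57 (log2) in WT cocaine and 0.45 in WT saline. Its amplitudes were 0.08 and 0.15 in iMSN-D2RKO saline and cocaine, where the widest were those of Aqp4 (0.29) and Gjb6 (0.21). None of these Gfap waves passed (exact JTK_CYCLE p = 0.324, 0.262, 0.995 and 1). The test of the difference in rhythm itself called 0 of 10 members and 0 of all genes (0%) in each of the 4 comparisons by limma. In iMSN-D2RKO against WT under cocaine, 2 of 10 members had an unadjusted p under 0.05, as had 4.83% of all genes, and these were Gfap and Sox9, both with a limma adjusted p of 0.59. In the other 3 comparisons 0 of 10 members had an unadjusted p under 0.05, beside 1.38% of all genes for cocaine against saline in WT, 5.54% for the same in iMSN-D2RKO and 2.48% for genotype under saline.

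Among other genes that astrocytes express, 8 of 59 tested in 7 lists were rhythmic in WT saline, 4 of 60 in WT cocaine, 1 of 56 in iMSN-D2RKO saline and 1 of 57 in iMSN-D2RKO cocaine, beside 9.81%, 7.61%, 2.58% and 1.1% of all genes. Without the set-apart libraries 3 of the 8 kept the call (Dio2, Fabp7 and Htra1), 1 of the 4 (Psmb8) and none of the others, and Osmr then fell under the filter on low values. In WT saline, 3 of 9 genes of lipid and amino acid metabolism were rhythmic, namely Dio2, the deiodinase that activates thyroid hormone (exact p = 1.97e-04, peak at ZT1), Fabp7, a fatty acid carrier (p = 3.37e-04, ZT5), and Slc7a10, an exchanger of glycine and serine (p = 0.00371, ZT7). The metallothionein Mt2 (1 of 3, exact p = 0.00173, ZT9), 3 of 14 other astrocyte genes (Htra1, a secreted protease, p = 6.22e-05; F3, tissue factor, p = 0.00401; Gpr37l1, a receptor, p = 0.00945) and 1 of 13 reactive astrocyte genes (Osmr, the oncostatin M receptor, p = 0.00755) passed too. None of 5 transmitter uptake genes, 8 ion and water genes or 7 glial transcription factors did. In WT cocaine the counts were 1 of 5 uptake genes (the glutamine transporter Slc38a3, exact p = 0.00533), 1 of 14 other astrocyte genes (F3, p = 0.00755) and 2 of 14 reactive genes (the protease inhibitor Serpina3n, p = 0.00223, and the proteasome subunit Psmb8, p = 0.00115), and none in the other lists. In iMSN-D2RKO, Mt2 was rhythmic under saline (exact p = 0.00755) and Dio2 under cocaine (p = 0.00255), and no other gene of these 7 lists was. Without the 2 libraries of widest second-axis score, Slc38a3 in WT cocaine (exact p = 0.0154) and Mt2 in iMSN-D2RKO saline (p = 0.03) did not pass.

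Cocaine left no member with a called difference in level. Over the 5 time points after the injection, limma called 0 of 10 members and 0 of 14392 genes (0%) in WT, and 0 of 10 members and 0 of 14238 genes (0%) in iMSN-D2RKO. At an unadjusted p under 0.05, 0 of 10 members and 2.54% of all genes passed in WT, and 0 of 10 members and 2.98% of all genes in iMSN-D2RKO. The members' differences were small, with a median of -0.08 (log2) in WT and -0.11 in iMSN-D2RKO, beside 0.00 and -0.01 over all genes. Only Sox9 was above 0 in WT (0.12, SE 0.10, interval -0.09 to 0.32) and only Mlc1 in iMSN-D2RKO (0.02, SE 0.11, interval -0.21 to 0.25). The farthest from 0 was Gfap in iMSN-D2RKO, at -0.28 (SE 0.16, interval -0.61 to 0.06, adjusted p = 0.999), and in WT it was at -0.01 with an interval of -0.44 to 0.43. For Aldoc, the member measured most closely, the interval was -0.23 to 0.09 in WT and -0.24 to 0.07 in iMSN-D2RKO. Differences inside these intervals are not excluded by 15 libraries a side. Without the set-apart libraries, Gfap (0.08) and Gjb6 (0.05) stood above 0 beside Sox9 in WT. In iMSN-D2RKO, Mlc1 then stood at -0.03, and Aqp4 (0.01) and Sox9 (0.02) were above 0. The cocaine effect itself was compared between the genotypes, and limma called 0 of 10 members and 0 of all genes (0%), with 0 of 10 members and 1.85% of all genes at an unadjusted p under 0.05.

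Genotype gave the same result for the members. In saline-treated mice with ZT3, 27 of 14287 genes (0.189%) and 0 of 10 members were called. Here 2 of 10 members and 10% of all genes had an unadjusted p under 0.05, and both were higher in iMSN-D2RKO, namely Aldoc by 0.13 (SE 0.06, interval 0.00 to 0.26, adjusted p = 0.496) and Gjb6 by 0.22 (SE 0.11, interval 0.00 to 0.44, adjusted p = 0.492). In cocaine-treated mice 7 of 14382 genes (0.0487%) and 0 of 10 members were called, and 0 of 10 members and 3.55% of all genes had an unadjusted p under 0.05. There the differences ran from -0.12 for Aqp4 (interval -0.42 to 0.17) to 0.17 for Glul (interval -0.08 to 0.43). The medians over members were 0.04 and 0.02, beside 0.01 and 0.01 over all genes. Without the set-apart libraries 0 of 10 members were called in each of the 4 comparisons, and the differences named above were -0.29 for Gfap under cocaine in iMSN-D2RKO and, for genotype under saline, 0.18 for Aldoc (limma adjusted p = 0.226) and 0.27 for Gjb6 (limma adjusted p = 0.253). In bulk tissue, fewer astrocytes and less RNA per astrocyte cannot be told apart. The comparisons of treatment and of genotype share libraries, so their values are not independent of each other.

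No gene of the other astrocyte lists was called for level over the whole day. In each of the 4 comparisons, 0 of the 5 uptake genes (most abundant Slc1a2, mean 212 FPKM), 8 ion and water genes (Atp1b2, 157), 9 lipid and amino acid genes (Apoe, 2060), 3 metallothioneins (Mt3, 828), 14 other astrocyte genes (Sparcl1, 490), 7 glial transcription factors (Id4, 165) and 16 reactive astrocyte genes (Vim, 22.6) were called by limma, of which 11 to 15 reactive genes could be tested. The list median farthest from 0 was -0.19, over the 3 metallothioneins in iMSN-D2RKO against WT under cocaine. Of the reactive genes, 7 of 16 had a mean under 1 FPKM, Lcn2 (mean 0.193) and Cxcl10 (0.159) among them.

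**Figure D3:**
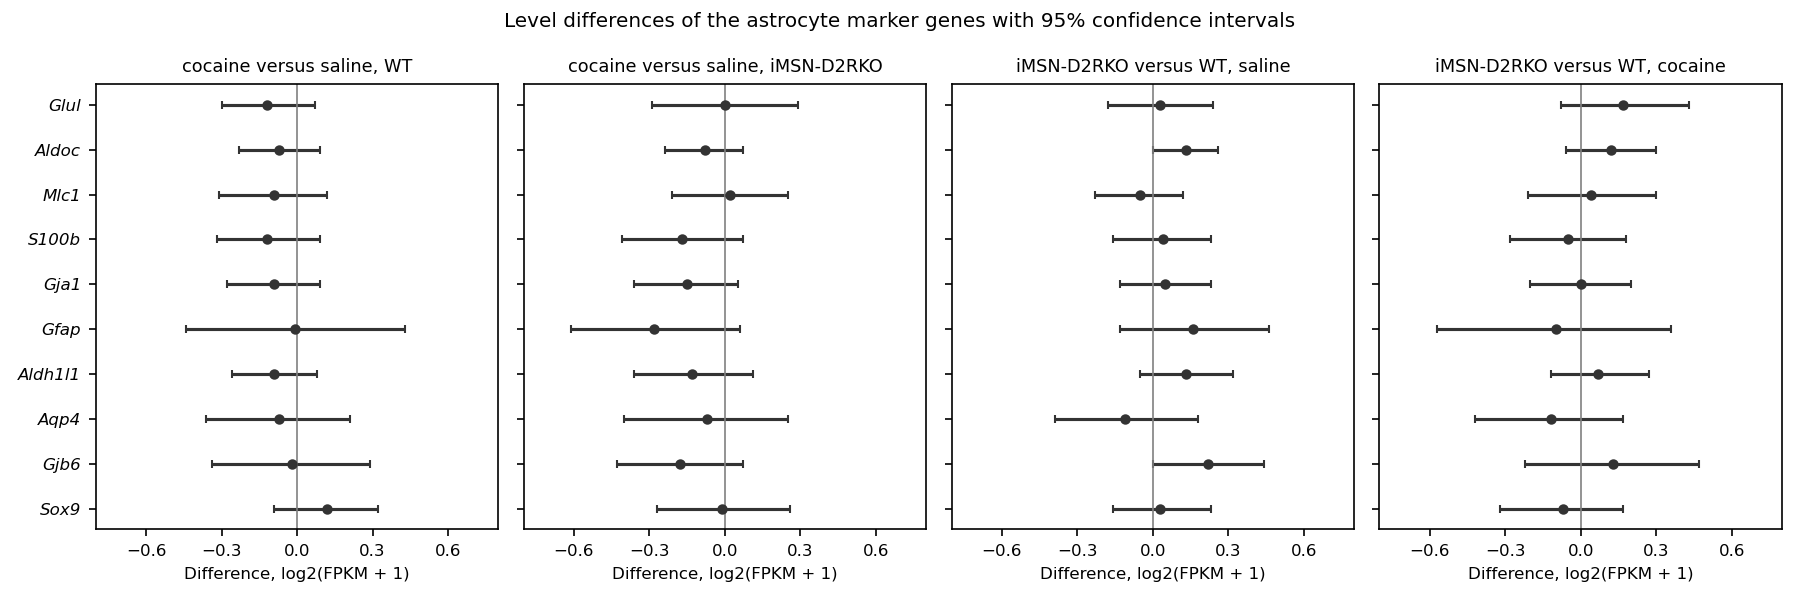
Difference in level of each astrocyte marker gene on the scale of log2(FPKM + 1) (x axis), with points for the limma estimate and bars for its 95% confidence interval, in 4 comparisons. No member passed the threshold in any of the 4, and Gfap has the widest intervals, -0.57 to 0.36 in iMSN-D2RKO against WT under cocaine.

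At single time points the members were compared in 10 contrasts of cocaine against saline and 11 of iMSN-D2RKO against WT, fitted together on all 66 libraries. No member was called in any of the 21. Of the genes tested, cocaine against saline called 0.00683% in WT at ZT7 and at ZT15, 0.0205% at ZT19, 0.0137% in iMSN-D2RKO at ZT7, and 0% in the other 6 contrasts. Genotype called 0.041% at ZT3, 3.07% under saline at ZT7, 0.0205% under saline at ZT19, 4.4% under cocaine at ZT15, 11.9% under cocaine at ZT19, 0.0137% under cocaine at ZT23, and 0% in the other 5. An unadjusted p under 0.05 was reached by 2 of 100 member values for cocaine, where 5.79% of all gene values did, and by 8 of 110 for genotype, where 9.69% did. Neither share of the members was above that of all genes.

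The contrast in which most genes were called, iMSN-D2RKO against WT under cocaine at ZT19, had 4 of those 8 values. In that contrast alone 37.9% of all genes had an unadjusted p under 0.05, so 4 of 10 members was near the background. Sox9 stood at 9, 9.41 and 6.09 FPKM in iMSN-D2RKO and at 14.3, 13.3 and 12.7 in WT. The difference was -0.67 (SE 0.25, limma adjusted p = 0.0608). Glul stood at 399, 464 and 469 in iMSN-D2RKO and at 249, 345 and 253 in WT, with a difference of 0.66 (SE 0.27, adjusted p = 0.0722). Mlc1 stood at 75.8, 79.5 and 76.2 against 47.3, 71.3 and 40.5, and differed by 0.57 (SE 0.24, adjusted p = 0.0849). Aqp4 stood at 12.7, 13.1 and 16.7 against 28.7, 17.4 and 24.9, and differed by -0.68 (SE 0.33, adjusted p = 0.125). Here 2 of the 3 WT libraries and none of the 3 iMSN-D2RKO libraries were set apart, and the part of this in the differences was not tested. Sox9 and Aqp4, higher in the set-apart libraries, were higher in WT, while Glul and Mlc1, lower in the set-apart libraries, were lower in WT. Within WT ZT19 cocaine itself, Sox9 differed by 0.02, Aqp4 by 0.59, Glul by -0.46 and Mlc1 by -0.69 in the set-apart libraries. In the fit without them, which leaves WT ZT19 cocaine replicate 2 as the only library of its arm and takes it to vary like the other groups, the differences were 0.36 for Glul (adjusted p = 0.321), 0.11 for Mlc1 (0.766), -0.29 for Aqp4 (0.647) and -0.66 for Sox9 (0.0465). In the same fit Gfap went from -0.66 (adjusted p = 0.246) to -1.66 (adjusted p = 0.0344), and the lone WT library left was the 1 with 84.9 FPKM. Of all genes, 20.4% were called in it. With all libraries and the library score as a covariate, the differences were 0.16 for Glul (adjusted p = 0.692), 0.05 for Mlc1 (0.885), -0.06 for Aqp4 (0.924) and -0.18 for Sox9 (0.624).

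The calls of other genes at ZT19 under cocaine depended on the settings. The 1743 genes called there fell to 2 of 20244 with no filter on low values, to 4 with the library score as a covariate, and to 0 without replicates 1, 2 or 3, and rose to 2948 without the set-apart libraries. Of the other astrocyte lists, 6 of 61 genes tested (9.84%) were called by limma, with adjusted p from 0.0441 to 0.0474, where 11.9% of all genes were. Id4 (-1.35), Slc1a3 (-0.87), the complement gene C3 (-0.81) and the chaperone Clu (-0.78) were lower in iMSN-D2RKO, and Psmb8 (1.22) and Cbs, an enzyme of sulphur amino acid metabolism (0.83), were higher. None of the 6 passed with no filter, where the differences were the same and the adjusted p of Id4 was 0.0568. None passed without a replicate number, where Id4 differed by -1.48, -1.55 and -1.03 and C3 by -0.01, -1.19 and -1.24. None passed with the score as a covariate. There the differences were smaller for Id4 (-0.46), Slc1a3 (-0.38), Clu (-0.52), Psmb8 (0.37) and Cbs (0.28), while C3 differed by -0.76. All 6 passed without the 2 libraries of widest second-axis score, with limma adjusted p from 0.0161 for Clu to 0.0339 for C3. Without the set-apart libraries, with the lone WT library, the limma differences were -0.99 for Id4 (adjusted p = 0.00937), -0.95 for Slc1a3 (0.000682), -0.93 for Clu (0.0246) and 0.89 for Psmb8 (0.0134), while C3 (-0.11, 0.772) and Cbs (0.27, 0.337) did not pass. Genes of other lists were called in the same contrast. They were the microglia gene P2ry12 (-1.41), the endothelial genes Ly6c1 (-1.27) and Slco1a4 (-0.55), the spiny neuron receptor gene Drd1 (0.74), and the glucocorticoid-induced genes Errfi1 (-0.50) and, higher, Ddit4 (adjusted p = 0.0445). The part of other cell types in the astrocyte values was not tested.

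Under cocaine at ZT15, where 4.4% of all genes were called, the lipid carrier Apoe was higher in iMSN-D2RKO (1.06, limma adjusted p = 0.0438) and Slc38a3 lower (-0.60, adjusted p = 0.035). Without the 2 libraries of widest second-axis score, Apoe differed by 0.43 (adjusted p = 0.332) and Slc38a3 by -0.61 (adjusted p = 0.189), and without the set-apart libraries by 1.06 (adjusted p = 0.106) and -0.47 (adjusted p = 0.093). The 645 genes called in this contrast fell to 2 without the 2 libraries. Of other lists, Penk (1.29) was called higher and the clock genes Per1 (-0.73), Per3 (-0.65) and Nr1d1 (-0.62) lower. Without the 2 libraries none of these 4 passed, at 1.08 for Penk (limma adjusted p = 0.0721), -0.35 for Per1 (0.412), -0.25 for Per3 (0.375) and -0.52 for Nr1d1 (0.208). Elsewhere the called list genes were Penk (1.71), Rgs9 (0.94) and the glucocorticoid-induced Sult1a1 (0.85) for genotype under saline at ZT7, and the kinase gene Sgk1 (-1.24) at ZT3. At ZT7 the 449 genes called fell to 10 without the 2 libraries, of which 1 is in this contrast, and Penk (1.02, limma adjusted p = 0.13), Rgs9 (0.51, 0.845) and Sult1a1 (0.36, 1) did not pass. Sgk1 did not pass without replicates 1 (-1.20, adjusted p = 1), 2 (-1.45, 0.332) or 3 (-1.07, 0.6).

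The other unadjusted values concerned Aldoc in 3 contrasts and Aqp4, Gja1 and Gfap in 1 each. Aldoc stood at 456, 306 and 244 FPKM in iMSN-D2RKO ZT7 saline, at 245, 231 and 254 after cocaine and at 210, 255 and 280 in WT saline. Only 456 and 306 lay above the other groups, and the differences were -0.41 for cocaine (SE 0.17, adjusted p = 0.163) and 0.39 for genotype (SE 0.17, adjusted p = 0.176). Without the 2 libraries of widest second-axis score they were -0.17 and 0.15. At ZT15 under cocaine, Aldoc stood at 262, 281 and 261 in iMSN-D2RKO and at 244, 237 and 131 in WT (0.45, SE 0.17, adjusted p = 0.109). The difference was 0.15 without those libraries. Aqp4 under saline at ZT7 differed by -0.68 between genotypes (SE 0.33, adjusted p = 0.236) and by -0.25 without them, since 1 iMSN-D2RKO library stood at 6.3. Gja1 in iMSN-D2RKO at ZT19 stood at 75.8, 64.3 and 93.7 with saline and at 54.5, 56.3 and 56.3 with cocaine (-0.46, SE 0.21, adjusted p = 0.304). The difference was -0.20 without the 2 set-apart saline libraries, which leaves the library at 64.3 alone in that arm. Gfap under cocaine at ZT23 stood at 20.6, 24 and 18.5 in iMSN-D2RKO and at 43.8, 24.2 and 64.2 in WT, the groups touching at 24 and 24.2 (-0.93, SE 0.43, adjusted p = 1), and differed by -0.60 without the set-apart libraries.

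Whether the markers rise and fall together was asked inside the groups. Each value was taken as its deviation from the mean of its group, in the 50 libraries that are not set apart and whose group keeps at least 2 of them, and 45 pairs of members were compared by permuting libraries within groups. Of the 45 pairs, 35 correlated positively, 16 of them past an adjusted p of 0.05 over the 45 pairs, and no negative pair passed. How many pairs of other genes would pass was not tested, so these counts have no background to be read against. Aldoc, S100b, Gjb6, Gfap and Aldh1l1 formed a block that was chosen after the values were seen. Its weakest pair, Gfap and Aldh1l1 (r = 0.43, rho = 0.32), did not pass (permutation p = 0.0926, adjusted p = 0.2). Aldoc and S100b correlated at r = 0.87 (Spearman's rho = 0.85, permutation p = 1e-05, the smallest that 100000 permutations can give, adjusted p = 0.00015), and at 0.86 without the 2 libraries farthest from the median. S100b and Gjb6 correlated at 0.78 (rho = 0.78, permutation p = 4e-05, adjusted p = 0.00036, 0.80 without 2 libraries), and Gfap and Gjb6 at 0.71 (rho = 0.74, permutation p = 1e-05, adjusted p = 0.00015, 0.67 without 2). Outside this block, Gja1 correlated with Mlc1 at 0.75 (rho = 0.49, permutation p = 0.00148, adjusted p = 0.00605, 0.54 without 2) and with Aqp4 at 0.70 (rho = 0.65, permutation p = 0.00043, adjusted p = 0.00242, 0.71 without 2).

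Sox9 did not belong to the block. Its correlation with the other 9 members ran from -0.36 with Aqp4 to 0.12 with Aldh1l1, and none passed. Across all 66 libraries, the set-apart libraries included, 16 positive and 4 negative pairs passed.

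**Figure D4:**
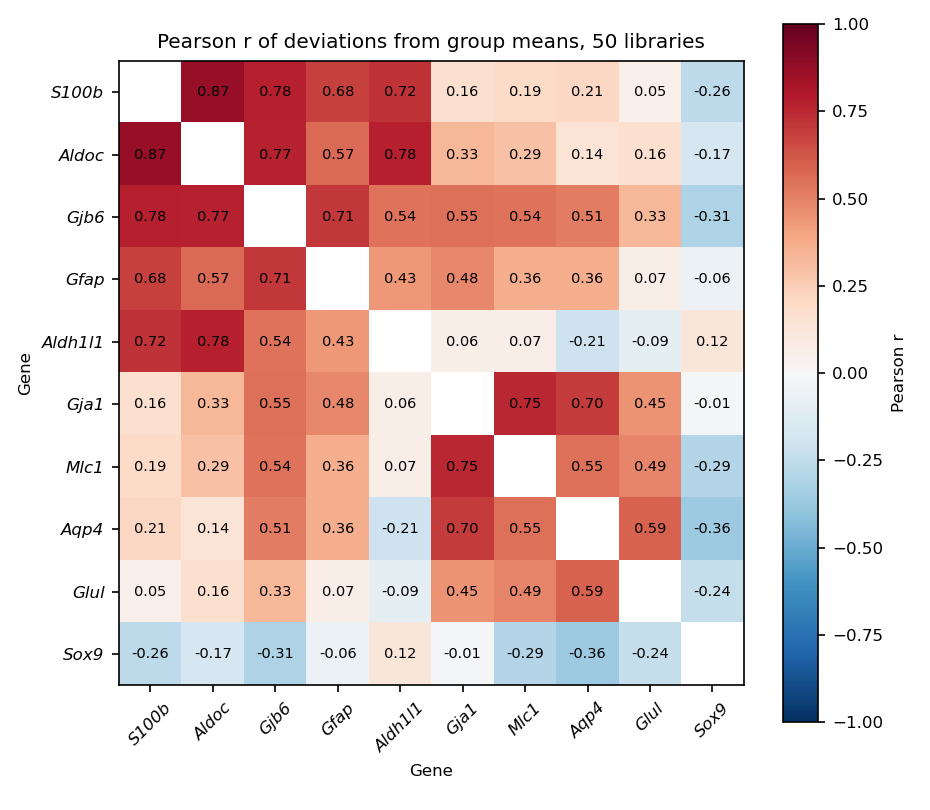
Pearson correlation of each pair of astrocyte marker genes, from deviations of log2(FPKM + 1) from the group mean in 50 libraries that are not set apart (colour and number, red positive and blue negative). Aldoc, S100b, Gjb6, Gfap and Aldh1l1 form a block with values from 0.43 to 0.87, and the column of Sox9 runs from -0.36 to 0.12.

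The same members also rose and fell with markers of other cells. The deviations were compared with the summed level of 9 oligodendrocyte, 9 spiny neuron, 10 microglia and 9 endothelial markers, 40 relations in all. Of these, 10 were positive and 1 negative past an adjusted p of 0.05, and the share that other genes would reach was not tested. With the oligodendrocyte sum (most abundant gene Mbp, 1950 to 6170 FPKM in all), S100b correlated at r = 0.79 (rho = 0.77, permutation p = 2e-05, adjusted p = 2e-04, 0.78 without 2 libraries), Gjb6 at 0.78 (rho = 0.79, permutation p = 1e-05, adjusted p = 2e-04, 0.79 without 2) and Gfap at 0.76 (rho = 0.74, permutation p = 3e-05, adjusted p = 0.00024, 0.69 without 2). Aldoc stood at 0.61, Aqp4 at 0.57 and Gja1 at 0.42, which passed too, while Sox9 stood at -0.18 (rho = -0.10, permutation p = 0.307, adjusted p = 0.491, -0.14 without 2). With the endothelial sum (131 to 283 FPKM), Aldoc correlated at 0.85 (rho = 0.70, permutation p = 2e-05, adjusted p = 2e-04, 0.76 without 2), S100b at 0.84, Aldh1l1 at 0.70 and Gjb6 at 0.66. The 1 negative relation past the threshold was Aqp4 with the spiny neuron sum, at -0.68 (rho = -0.48, permutation p = 0.00257, adjusted p = 0.0103, -0.56 without 2). The part of tissue composition in these relations was not tested, and S100b is known to be made by oligodendrocytes as well. All these values share a library and its normalization.

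**Figure D5:**
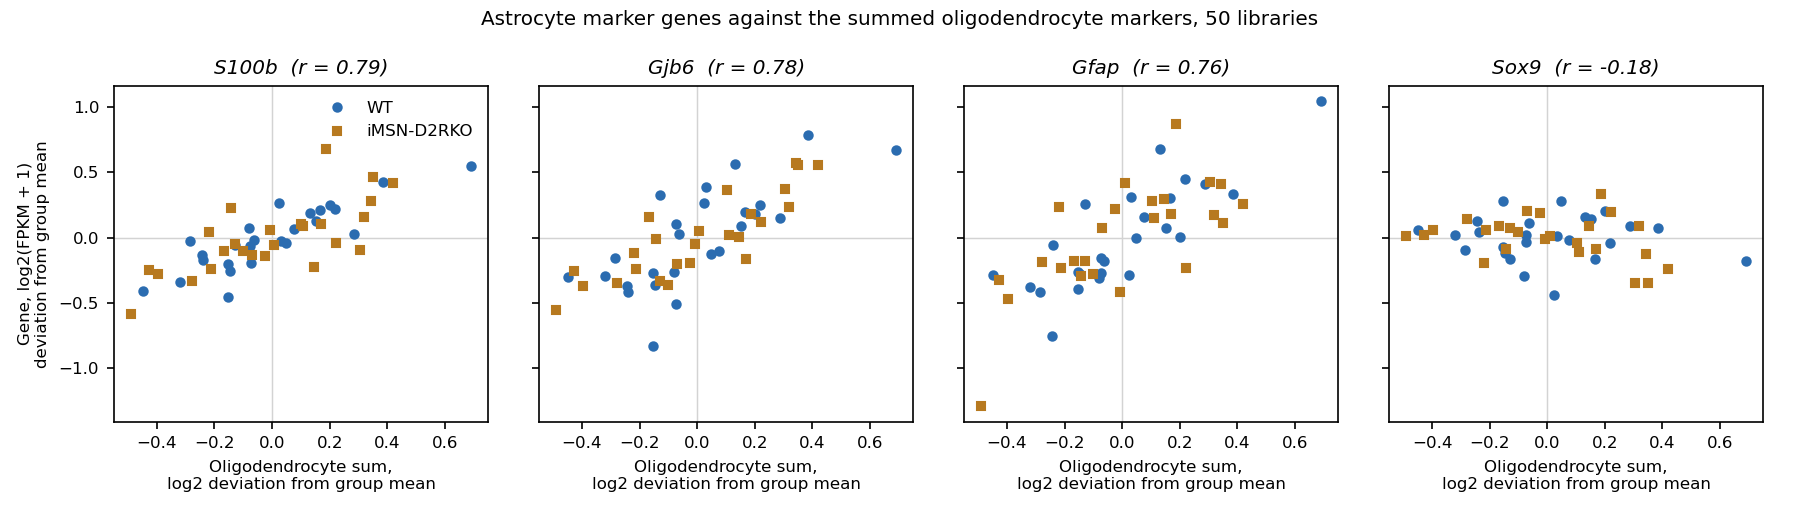
Deviation of S100b, Gjb6, Gfap and Sox9 from their group mean, in log2(FPKM + 1) (y axis), against the deviation of the summed oligodendrocyte markers in log2 (x axis), in 50 libraries, with circles for WT and squares for iMSN-D2RKO. The first 3 genes rise with the sum (r = 0.79, 0.78 and 0.76) in both genotypes and Sox9 does not (r = -0.18).

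The genes whose pattern over the 66 libraries was most like that of each member were sought among the 9584 genes by Pearson's r of log2(FPKM + 1), as a description without a test. For Gfap they were Serpinf1 (0.81), Csrp1 (0.80) and Bcas1 (0.80), for S100b Fndc5 (0.91) and Gjb1 (0.86), with an entry written 4-Sep (0.88) between them, and for Gjb6 Timp4 (0.81), Fgf1 (0.79) and Pygm (0.78). Bcas1 is known from oligodendrocytes and Gjb1 is the connexin 32 of myelinating cells. For Aldoc the nearest were Ndufa10 (0.90), Coq7 (0.86) and Taf13 (0.86), for Glul Ier3 (0.80), Dynll2 (0.79) and Sec13 (0.79), and for Aldh1l1 Cope (0.90), Pbxip1 (0.90) and Fbxo2 (0.89). For Gja1 they were Cfl2 (0.86), Maoa (0.85) and Ednrb (0.85), for Mlc1 Nkain4 (0.94), Hyal2 (0.93) and Sdhd (0.92), for Aqp4 Klhl4 (0.93), Edil3 (0.92) and Eif5a2 (0.91), and for Sox9 Tox4, Sin3a and Mcm4 (each 0.85). These values pool the set-apart and the other libraries. With the 13 set-apart libraries left out, the nearest gene was Ptbp1 for Sox9 (0.64), Zfp191 for Glul (0.57), Slc39a12 for Aqp4 (0.89), Hyal2 for Mlc1 (0.81), Ednrb for Gja1 (0.79), Fgf1 for Gjb6 (0.85), Cndp2 for Aldh1l1 (0.89), Ndufa10 for Aldoc (0.91) and Fndc5 for S100b (0.93), and for Gfap a joint entry of Evi2a, Evi2b and Gm21975 (0.81). No member was among the 3 nearest genes of another member. After removal of group means the nearest genes included Etnppl for Gfap (0.80), Chpt1 for Aqp4 (0.94), Pepd for Aldoc (0.90), Pdgfa for Aldh1l1 (0.91), Asb13 for Glul (0.86), Tsc22d3 for Gjb6 (0.88), Maoa for Gja1 (0.88), Parp2 for Sox9 (0.87), Hyal2 for Mlc1 (0.94) and Fndc5 for S100b (0.91).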

How the data were processed

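Total RNA from NAcc punches was sequenced by the authors as stranded poly(A) libraries, single-end, and aligned to mm10 with TopHat and Bowtie. The authors deposited 1 table of FPKM values per gene, made with Cufflinks and Cuffnorm, and the annotation release was not given in the sources used here. The table has 72 columns, of which 6 repeat the ZT3 libraries with identical values, leaving 66 libraries in 22 groups of 3, and 0 columns belonged to no sample. The sources do not say that each library is 1 mouse, so p-values measure only the spread between these samples. FPKM holds no read counts, so depth per library is unknown.

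Levels were tested on log2(FPKM + 1) with limma 3.58.1 in R 4.3.3 (empirical Bayes with a variance trend, time point as a factor, genes at 1 FPKM or more in at least 1 library, Benjamini-Hochberg adjustment over all genes tested, threshold 0.05, two-sided). Cocaine was compared with saline after ZT3 and genotypes within a treatment, and single time points in 1 fit over 66 libraries. Rhythm was tested with JTK_CYCLE, rewritten in R, over 11 pairs of period and phase (20 to 24 h), at a Bonferroni-corrected p under 0.01, after removal of at most 1 outlying replicate per time point by Dixon's test. Its order of tied values was settled by comparison with the source table of the study. Rhythm differences used limma F tests of a 24 h cosine. Correlations were permuted within groups 100000 times in Python 3.11.15 (numpy 2.4.6, pandas 2.3.3, scipy 1.17.1, with matplotlib 3.10.9 for figures). Tested on simulated data, the level test in WT found 73.5% of 200 genes shifted by 0.5 (log2) among 13895 and 98.5% of 200 shifted by 1. The rhythm test in WT saline found 38% of 200 waves of amplitude 0.3 and 74% of 200 of amplitude 0.5 among 2200 genes. The simulated noise was independent between genes and libraries and held no set-apart libraries, so these shares need not hold for the real data.

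The members and lists were chosen with earlier results of these data known. The text names all members, every list gene past the threshold on level at a single time point, and every rhythmic gene of the other astrocyte lists. For both, the limit was 4 genes per list and comparison, by smallest p. Otherwise it names the most abundant gene of a list, the 3 genes most like each member, Drd2 and the clock genes. Markers of other cell types and glucocorticoid-induced genes that passed the rhythm test are not named as rhythmic. Alternatives were another pseudocount (0.1), no filter, median-ratio rescaling, no variance trend, a replicate block, the library score as a term, and leaving out replicates, time points, the 13 set-apart libraries or the 2 libraries of widest second-axis score, the last chosen after seeing the data, as were all alternatives for genes of the other lists. Some list genes and the summed level of the microglia list are not reported here.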

Additional observations from a re-analysis of the deposited data

How the results depend on the processing

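The 1 member call, Sox9 rhythm in WT cocaine, was lost under several alternatives, and 83 of 759 alternative level differences had the other sign than reported, none of them past the threshold on either side. In WT saline the count of rhythmic members rose from 0 to 1 with the library score removed (Gja1, exact p = 0.00745) and to 4 without ZT7 (Gfap, Aqp4, Aldoc and S100b), where 7.27% and 9.44% of all genes were rhythmic. In WT cocaine it fell from 1 to 0 without replicates 1, 2 or 3 (range 0 to 0), without the set-apart libraries, with median-ratio rescaling (Sox9 exact p = 0.0476), with the score removed (p = 0.211), without ZT11 (p = 0.0282), ZT15 (p = 0.0121) or ZT19 (p = 0.0863), and without the set-apart libraries and the 2 of widest second-axis score (p = 0.0732), the cause of which was not tested. By time point, cocaine against saline went from 0 member calls to 1 without replicate 3 (range 0 to 1; Aldoc in iMSN-D2RKO at ZT7, -0.65, limma adjusted p = 0.046, where 9.11% of all genes were called), and to 1 without the set-apart libraries, with or without those 2 (Sox9 in WT at ZT19, 1.03, adjusted p = 0.0198 and 0.00348, where 10.5% and 28.4% of all genes were called, against 0.41 with all libraries, resting on 1 library per arm that was taken to vary like the other groups). Genotype went from 0 to 2 without the set-apart libraries, to 2 without those and the 2 libraries, to 1 without the 2 libraries alone (Sox9, adjusted p = 0.0453), to 3 with the library score as a term (Aqp4 under saline at ZT7, -0.65; Aldoc 0.51 and Glul 0.52 under cocaine at ZT15) and to 3 in a fit of only the 6 libraries of the contrast at ZT19 under cocaine (Aqp4, Glul and Sox9). In these settings 20.4%, 38.6%, 24.6% and, for the 6 libraries, 26.4% of all genes were called at ZT19 under cocaine, and with the score as a term 19.3% under saline at ZT7 and 16.4% under cocaine at ZT15. With replicate number as a block, 0 members were called in every comparison, and 19 genes in place of 27 for genotype under saline. Same-numbered libraries did not deviate together (mean r = 0.00 over 693 pairs, from -0.89 to 0.88), so the numbers are shared only as labels. Depth per library is unknown, so counting error could not be given.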
